A study of Mus musculus with 10 samples.

Results

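The dual-specificity phosphatase genes Dusp1, Dusp2, Dusp4, Dusp5, Dusp6 and Dusp10 and the Sprouty genes Spry1 and Spry2 were followed in CD8 T cells taken from a mouse tumour. These 8 genes, chosen by name as feedback regulators of the mitogen-activated protein (MAP) kinases, are 8 of the 54337 genes to which the transcripts of the files were assigned, and all 8 passed the filter on low read counts. The T cells carried the transgenic receptor TCRP1A, which recognises a peptide of the tumour antigen P1A. They were activated for 24 h, transduced with a retrovirus, transferred 24 h later into Rag1-/- B10D2 mice bearing P511 mastocytoma, a mast cell tumour, and sorted from the tumours 7 days after transfer. The strain label reads C57BL/6. One group received an empty vector with eGFP, another a vector for NFAT5, and the remaining group a vector for CA-RIT NFAT1, a constitutively active NFAT1 with mutations that prevent its pairing with AP-1. Each vector was thus compared in activated, transferred T cells that all carried a retrovirus, in hosts without T or B cells of their own. There were 3 libraries for eGFP, 3 for NFAT5 and 4 for CA-RIT NFAT1, named here by the number in their title.

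MAP kinases carry the signal of the T cell receptor from RAS through a kinase cascade to ERK, and on parallel routes to JNK and p38. Dual-specificity phosphatases of the MAP kinase phosphatase type remove both the phosphotyrosine and the phosphothreonine that activate these kinases, and several of their genes are themselves induced when ERK is active. Sprouty proteins act higher up and restrain signalling between receptor and kinase cascade, so both families are feedback brakes, and they are among the genes whose RNA follows recent receptor signalling in T cells.

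In 9 libraries 18761187 to 36519203 estimated reads were assigned to genes, and in eGFP 7 only 51104. No read of eGFP 7 fell on any of the 8 genes, which at that depth allows levels of up to 58.7 CPM (3 counts; CPM, read counts scaled to a common library total), and CA-RIT NFAT1 10 held 0.0308 CPM of Cd8a against 582 to 988 CPM in the 8 other libraries of usual depth. In eGFP 7 the T cell marker Trbc2 stood at 235 CPM, against 15593 to 25613 CPM in those 8 libraries. The comparisons therefore rest on 8 libraries: eGFP 3 and 6, NFAT5 1, 5 and 8, and CA-RIT NFAT1 2, 4 and 9. Nfat5 stood at 48.0 to 87.0 CPM in the 3 NFAT5 libraries and at 1.12 to 10.7 CPM in the other 5. Nfatc2, which encodes NFAT1, stood at 30.0 to 88.8 CPM in the CA-RIT NFAT1 libraries, 36.6 to 70.0 CPM in the NFAT5 libraries and 4.00 and 47.3 CPM in eGFP 3 and 6, so its level did not set the CA-RIT NFAT1 libraries apart. The library eGFP 3 was the deepest and yet had reads on 13186 genes, against 15276 to 17255 in the other 7.

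All 8 markers of CD8 T cells were present, with summed levels of 27542 and 32664 CPM in the eGFP libraries, 20041 to 21575 in the NFAT5 libraries and 22317 to 24557 in the CA-RIT NFAT1 libraries. Markers of mast cells and of P511 (11 genes, of which Fcer1a, Tpsb2 and Tpsab1 had no read) summed to 56.6 and 248 CPM, 150 to 265 CPM and 79.2 to 220 CPM in these groups. For the 12 macrophage and monocyte markers the ranges were 119 to 251, 70.0 to 192 and 94.4 to 233 CPM, and for the 8 dendritic cell markers, with Clec9a at 0, they were 145 to 1031, 119 to 171 and 106 to 143 CPM, the highest value being that of eGFP 3. In each of the 8 libraries, only 2 to 4 of the dendritic cell markers were above 1 CPM. The part of these other cells in the results below was not tested. In sorted cells measured in bulk, fewer cells of a type and less RNA per cell cannot be told apart, and since no label ties the libraries to separate mice, the spread behind the p-values is that between these samples and may be technical.

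Compared per unit of transcript length, in TPM, which are scaled by length and library, the genes covered a wide range of levels over the 8 libraries. Dusp2, a nuclear phosphatase first described in activated lymphocytes, led at 973 ± 636 TPM (SD, n = 8). Dusp5, a nuclear phosphatase selective for ERK, followed at 205 ± 94.1 TPM, and Dusp1, which acts on p38, JNK and ERK in the nucleus, at 115 ± 29.9 TPM. The nuclear Dusp4 at 37.3 ± 14.5 TPM and the cytoplasmic, ERK-selective Dusp6 at 31.6 ± 13.4 TPM lay close together. Below them came Dusp10, which prefers JNK and p38, at 14.4 ± 4.98 TPM, Spry1 at 6.56 ± 2.72 TPM and Spry2 at 0.842 ± 0.445 TPM. Dusp2 exceeded Dusp5 in 8 of 8 libraries, as did Dusp1 over Dusp4, Dusp6 over Dusp10 and Spry1 over Spry2. Dusp5 exceeded Dusp1 in 6 of 8 libraries, with the order turned in both eGFP libraries, and Dusp10 exceeded Spry1 in 7 of 8. Dusp4 exceeded Dusp6 in 5 of 8, so the spread between libraries did not separate that pair. Dusp2 also varied the most among the dual-specificity phosphatases, with its highest library at 7.95 times its lowest, while Dusp1 varied the least at 2.18 times.

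**Figure D1:**
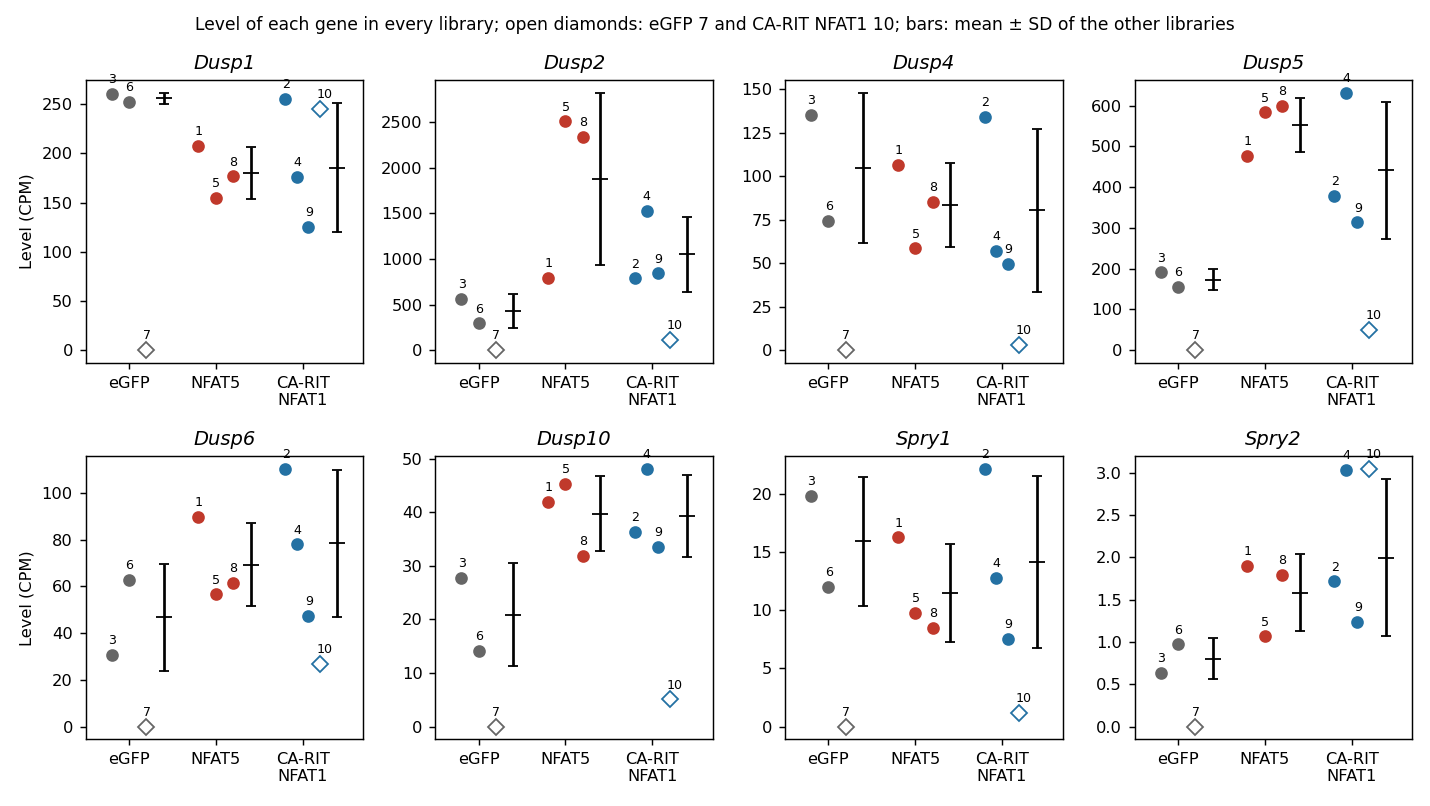
Level of each of the 8 genes in CPM (linear axis from 0) in every library, by vector; numbers are library numbers, filled circles are the 8 libraries compared, open diamonds are eGFP 7 and CA-RIT NFAT1 10, and bars are the mean ± SD of the filled circles. Both filled eGFP points lie under every filled point of the other groups for Dusp2, Dusp5, Dusp10 and Spry2, whereas the groups overlap for Dusp4, Dusp6 and Spry1.

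The question asked of these genes was whether T cells given NFAT5, or an NFAT1 that cannot pair with AP-1, hold more or less RNA for these brakes than T cells given the empty vector. Dusp5, Dusp2, Dusp10 and the barely detected Spry2 stood higher in every NFAT5 and every CA-RIT NFAT1 library than in either eGFP library. Of all 14473 genes tested, 14.2% did so in each comparison with eGFP, and the share in both at once was not counted. Dusp1 stood lower in the 3 NFAT5 libraries than in both eGFP libraries, as did 8.15% of all genes. Dusp4, Dusp6 and Spry1 overlapped between the groups. None of these differences passed adjustment over all genes in edgeR's quasi-likelihood test, in which no gene passed in any comparison. The comparisons of NFAT5 and of CA-RIT NFAT1 with eGFP share the same 2 control libraries, so likeness between them is not independent evidence.

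Dusp5 (chromosome 19, 53529109 to 53542431, plus strand, GRCm38) measured 191 CPM in eGFP 3 and 155 CPM in eGFP 6. In the NFAT5 libraries 1, 5 and 8 it measured 477, 583 and 599 CPM, and in the CA-RIT NFAT1 libraries 2, 4 and 9 it measured 378, 632 and 313 CPM. Each of the 6 libraries with a transcription factor thus lay above both controls, and the NFAT5 and CA-RIT NFAT1 libraries overlapped. Mean levels were 173 ± 25.4 CPM for eGFP (SD, n = 2), 553 ± 66.5 CPM for NFAT5 (SD, n = 3) and 441 ± 168 CPM for CA-RIT NFAT1 (SD, n = 3). The log2 fold change of NFAT5 against eGFP was 1.57 ± 0.35 (SE), 2.96-fold with a 95% interval of 1.71 to 5.14, with an unadjusted p of 0.00180 and an adjusted p of 0.654 in edgeR's quasi-likelihood test. By p it was the 23rd of 14473 genes. For CA-RIT NFAT1 against eGFP the log2 fold change was 1.23 ± 0.34 (unadjusted p = 0.00669, adjusted p = 0.679, edgeR). DESeq2 called Dusp5 in the first of these comparisons, with a log2 fold change of 1.55 and an adjusted p of 0.0196, among 131 genes it called there (0.877% of those it tested). Leaving out 1 library at a time kept the edgeR log2 fold change between 1.37 and 1.81 for NFAT5 and between 0.85 and 1.48 for CA-RIT NFAT1.

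All of the Dusp5 reads were assigned to a single transcript, Dusp5-201. An antisense gene, AC137853.2, overlaps Dusp5 on the other strand and measured 5.70 and 7.04 CPM in the eGFP libraries, 24.3, 29.0 and 27.6 CPM in the NFAT5 libraries and 17.2, 27.3 and 12.1 CPM in the CA-RIT NFAT1 libraries. It tracked Dusp5 more closely than any other gene (Pearson r = 0.98 over 8 libraries, log2(CPM + 1)). Whether the libraries keep the strand is not given in the sources used here, so reads of these overlapping genes cannot be told apart where they share sequence. At its highest, the antisense gene held far fewer reads than Dusp5 in the same library.

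The 250 bases before the RefSeq transcription start were read for the 7 of the 8 genes with an entry in the RefSeq promoter table (GRCm38.p6); Dusp4 was not matched. They are shown for Dusp5, Dusp2 and Dusp1, whose groups did not overlap in the NFAT5 comparison and whose upstream bases hold different motifs, each on its own gene's strand, 5′ to 3′. Capitals mark the NFAT core GGAAA, the cyclic AMP response element TGACGTCA and its shorter form TGACG, the serum response element core known as the CArG box and the EGR motif GCGGGGGCG, all searched on both strands. The stretches are chr19:53528895-53529144 (plus strand) for Dusp5, chr2:127335909-127336158 (plus strand) for Dusp2 and chr17:26508473-26508722 (minus strand) for Dusp1.
Dusp5: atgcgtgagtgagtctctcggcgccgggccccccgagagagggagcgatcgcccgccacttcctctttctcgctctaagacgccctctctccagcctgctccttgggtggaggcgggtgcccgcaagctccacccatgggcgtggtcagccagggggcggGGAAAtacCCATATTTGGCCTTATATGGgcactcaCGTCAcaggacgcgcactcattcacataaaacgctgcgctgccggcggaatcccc
Dusp2: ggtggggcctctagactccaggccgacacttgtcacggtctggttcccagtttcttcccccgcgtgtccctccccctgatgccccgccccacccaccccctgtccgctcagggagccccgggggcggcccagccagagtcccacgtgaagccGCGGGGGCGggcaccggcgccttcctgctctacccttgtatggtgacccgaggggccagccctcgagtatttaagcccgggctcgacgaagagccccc
Dusp1: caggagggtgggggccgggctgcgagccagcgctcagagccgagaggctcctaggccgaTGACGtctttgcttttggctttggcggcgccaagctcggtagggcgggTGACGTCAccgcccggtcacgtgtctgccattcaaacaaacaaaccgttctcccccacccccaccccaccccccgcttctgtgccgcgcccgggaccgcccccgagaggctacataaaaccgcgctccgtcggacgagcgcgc

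Dusp5 held 2 CArG boxes, CCATATTTGG and CCTTATATGG, directly next to each other from 82 to 63 bases before the start, with GGAAA from 90 to 86 bases before it and TGACG on the other strand from 55 to 51 bases before it. A CArG box was present in 1.47% of the 32851 promoter entries over the same length, GGAAA in 55.6% and TGACG in 17.8%. Dusp2 held no GGAAA, CArG box or cyclic AMP response element but 1 EGR motif (2.57% of entries), an E-box CACGTG (6.02%) and 3 GC boxes GGGCGG (32.7%), 1 of which overlaps the EGR motif. Dusp1 held the full TGACGTCA (1.55%), a further TGACG, 3 GC boxes and an E-box. Of the others, Dusp10 held 2 GC boxes, Spry1 held 1, Dusp6 held 2 copies of GGAAA and Spry2 held 3. The AP-1 motif TGANTCA (6.75%) was found in none of the 7 stretches. These are matches of letters in short windows and show neither binding nor its absence.

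**Figure D2:**
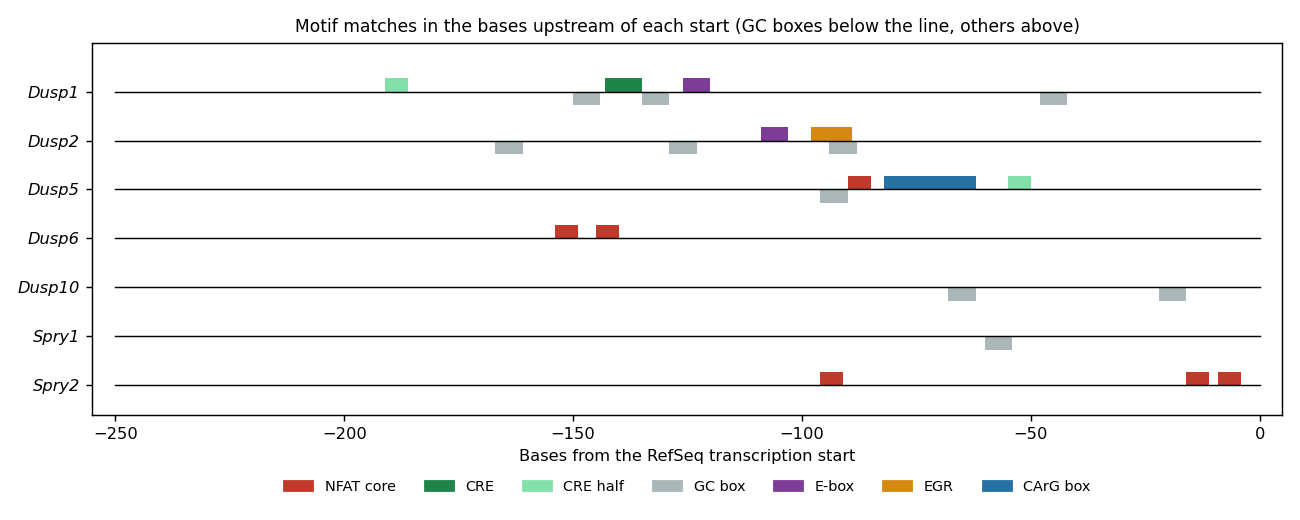
Motif matches on either strand in the 250 bases before the RefSeq start of 7 of the 8 genes, on an axis of bases from the start; GC boxes are drawn under each line and the other motifs above it. The 2 adjoining CArG boxes of Dusp5 form the widest block, and Dusp2, Dusp5 and Dusp10 share no searched motif other than the GC box.

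Dusp2 (chromosome 2, 127336159 to 127338376, plus strand) measured 559 and 294 CPM in eGFP 3 and 6. It reached 2509 and 2338 CPM in NFAT5 5 and 8 but 797 CPM in NFAT5 1, and it measured 787, 1523 and 841 CPM in CA-RIT NFAT1 2, 4 and 9. The controls again lay below all 6 other libraries, and NFAT5 1 lay with CA-RIT NFAT1 2 and 9 rather than with its own group. Means were 426 ± 187 CPM for eGFP (SD, n = 2), 1881 ± 943 CPM for NFAT5 (SD, n = 3) and 1050 ± 410 CPM for CA-RIT NFAT1 (SD, n = 3). The log2 fold change was 2.03 ± 0.60 for NFAT5 against eGFP (unadjusted p = 0.00889, adjusted p = 0.654, edgeR) and 1.17 ± 0.57 for CA-RIT NFAT1 against eGFP (unadjusted p = 0.0752, adjusted p = 0.679, edgeR). For CA-RIT NFAT1 against NFAT5 it was -0.86 ± 0.50 (adjusted p = 1.00, edgeR), the widest gap between the 2 factors among the 8 genes, with an upper 95% bound of 1.21-fold. Without eGFP 3 the NFAT5 value was 2.66 and the CA-RIT NFAT1 value 1.81, and without eGFP 6 they were 1.60 and 0.74, so the choice of control library moved the fold by more than 1.5 times. In DESeq2 the adjusted p for NFAT5 was 0.0866. The share of Dusp2 reads on its coding transcript Dusp2-201 was 97.8 to 99.5%.

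Dusp10 (chromosome 1, 184013302 to 184075636, plus strand) measured 27.7 and 14.0 CPM in the eGFP libraries, 42.0, 45.3 and 31.8 CPM in NFAT5 1, 5 and 8, and 36.4, 48.1 and 33.5 CPM in CA-RIT NFAT1 2, 4 and 9. The lowest library with a factor, NFAT5 8, stood only slightly above eGFP 3. Log2 fold changes were 0.80 ± 0.40 for NFAT5 and 0.77 ± 0.40 for CA-RIT NFAT1 against eGFP, with adjusted p of 0.654 and 0.679 in edgeR. They came to 1.47 and 1.45 without eGFP 3 but to 0.35 and 0.33 without eGFP 6, so their size depended on which control library was used. The 2 factor groups, at 39.7 ± 7.00 and 39.3 ± 7.70 CPM (SD, n = 3 each), differed by -0.03 ± 0.35 on the log2 scale, with an interval from -0.82 to 0.77. Reads of 1700056E22Rik, a gene on the opposite strand within the span of Dusp10, did not exceed 4.90 CPM.

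Dusp1 (chromosome 17, 26505590 to 26562128, minus strand) was the phosphatase that stood lower with NFAT5. It measured 260 and 252 CPM in eGFP 3 and 6, and 208, 155 and 177 CPM in NFAT5 1, 5 and 8. In the CA-RIT NFAT1 libraries it measured 256, 176 and 125 CPM, so CA-RIT NFAT1 2 lay between the controls and that group overlapped with them. The log2 fold changes were -0.62 ± 0.29 (unadjusted p = 0.0600, adjusted p = 0.654, edgeR) and -0.60 ± 0.29 (unadjusted p = 0.0688, adjusted p = 0.679, edgeR). Dusp1 is also among the genes that tissue digestion induces, and of the 13 other digestion and heat shock genes tested, 9 lay lower with NFAT5 and 8 with CA-RIT NFAT1 than with eGFP. Their part in the Dusp1 values was not tested. Most Dusp1 reads, 86.0 to 93.2%, were on the coding transcript Dusp1-202. Another coding transcript, Dusp1-206, held 3.15 to 6.67%, and Dusp1-205 had no reads. The annotated gene overlaps Ergic1 on the other strand, which reached up to 65.2 CPM in the 8 libraries. Which transcript of Dusp1 makes that overlap was not examined.

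Dusp4 (chromosome 8, 34807297 to 34819894, plus strand) measured 135 and 74.5 CPM in the eGFP libraries, 106, 58.5 and 85.3 CPM in NFAT5 1, 5 and 8, and 134, 57.1 and 49.7 CPM in CA-RIT NFAT1 2, 4 and 9. Libraries of all 3 groups lay on both sides of 80 CPM, and the groups overlapped. The log2 fold changes against eGFP were -0.46 ± 0.48 for NFAT5 and -0.54 ± 0.47 for CA-RIT NFAT1 (adjusted p = 0.769 and 0.737, edgeR). Without eGFP 3 both turned to 0.13 and 0.05, so no direction can be given for Dusp4.

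Dusp6 (chromosome 10, 99263231 to 99267489, plus strand), the phosphatase most used as a readout of ERK activity, measured 30.5 and 63.0 CPM in eGFP 3 and 6, 89.6, 56.6 and 61.6 CPM in NFAT5 1, 5 and 8, and 110, 78.0 and 47.3 CPM in CA-RIT NFAT1 2, 4 and 9. The level of eGFP 3 was the lowest of the 8 and that of eGFP 6 fell among the libraries with a factor. The log2 fold changes were 0.48 ± 0.41 and 0.64 ± 0.42 (adjusted p = 0.727 and 0.687, edgeR). On the coding transcript Dusp6-201 lay 69.9 to 99.8% of its reads, the lowest share being that of CA-RIT NFAT1 9.

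Spry1 (chromosome 3, 37639947 to 37644598, plus strand) measured 19.9 and 12.0 CPM in the eGFP libraries, 16.3, 9.75 and 8.48 CPM in the NFAT5 libraries and 22.2, 12.8 and 7.55 CPM in the CA-RIT NFAT1 libraries. The groups overlapped, and the log2 fold changes were -0.60 ± 0.56 and -0.32 ± 0.56 (adjusted p = 0.744 and 0.868, edgeR). Leaving out eGFP 3 turned the CA-RIT NFAT1 value to 0.18. Its reads were split between coding transcripts that differ between libraries, with 12.9 to 100% on Spry1-201 and 0 to 87.1% on Spry1-203. These shares are estimates for transcripts that largely share their sequence, from few reads.

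Spry2 (chromosome 14, 105891947 to 105896819, minus strand) was near the limit of detection, with 20 to 88 reads in each of the 8 libraries. It measured 0.630 and 0.971 CPM in the eGFP libraries, 1.90, 1.07 and 1.79 CPM in the NFAT5 libraries and 1.72, 3.04 and 1.24 CPM in the CA-RIT NFAT1 libraries. The controls lay below all the others, with NFAT5 5 only slightly above eGFP 6. The log2 fold changes of 0.88 ± 0.89 and 1.21 ± 0.90 had intervals from -1.15 to 2.92 and from -0.85 to 3.27 (adjusted p = 0.765 and 0.701, edgeR). The library CA-RIT NFAT1 10 was poor in T cell transcripts. Mast cell and P511 markers summed to 5091 CPM there, macrophage and monocyte markers to 4665 CPM and dendritic cell markers to 3836 CPM. No read fell there on 6 of the 11 mast cell and P511 genes or on 6 of the 8 dendritic cell genes. All 12 macrophage and monocyte genes were above 1 CPM. That library held 3.05 CPM of Spry2, as much as the highest of the 8. The part of other cells in the Spry2 values was not tested.

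Counted together, 5 of the 8 genes had a log2 fold change above 0 in each comparison with eGFP, near the share of all genes tested (53.9% with NFAT5 and 54.6% with CA-RIT NFAT1). In NFAT5 against eGFP, 4 of the 8 genes (Dusp2, Dusp5, Dusp10 and Spry2) lay higher without overlap, against a background of 14.2% of the 14473 genes tested, and Dusp1 lay lower, against 8.15%. In CA-RIT NFAT1 against eGFP 4 genes (Dusp2, Dusp5, Dusp10 and Spry2) lay higher without overlap, against 14.2% of all genes, and none lower, against 6.7%. Between the factors no gene of the 8 was free of overlap, against 6.83% of all genes. With eGFP 6 as the only control, an alternative chosen after the data were seen, the counts were the same, but the background grew to 44.1% of genes in either direction for NFAT5 and 41.6% for CA-RIT NFAT1. An unadjusted p below 0.05 was found for 2 of the 8 genes with NFAT5 (7.26% of all genes) and for 1 with CA-RIT NFAT1 (6.44%). No gene of the 8 had one between the factors, where the share of all genes was 1.13%. The median log2 fold change of the 8 genes was 0.64 and 0.71 in the comparisons with eGFP, beside 0.08 and 0.10 over all genes tested, and it was 0.00 between the factors.

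**Figure D3:**
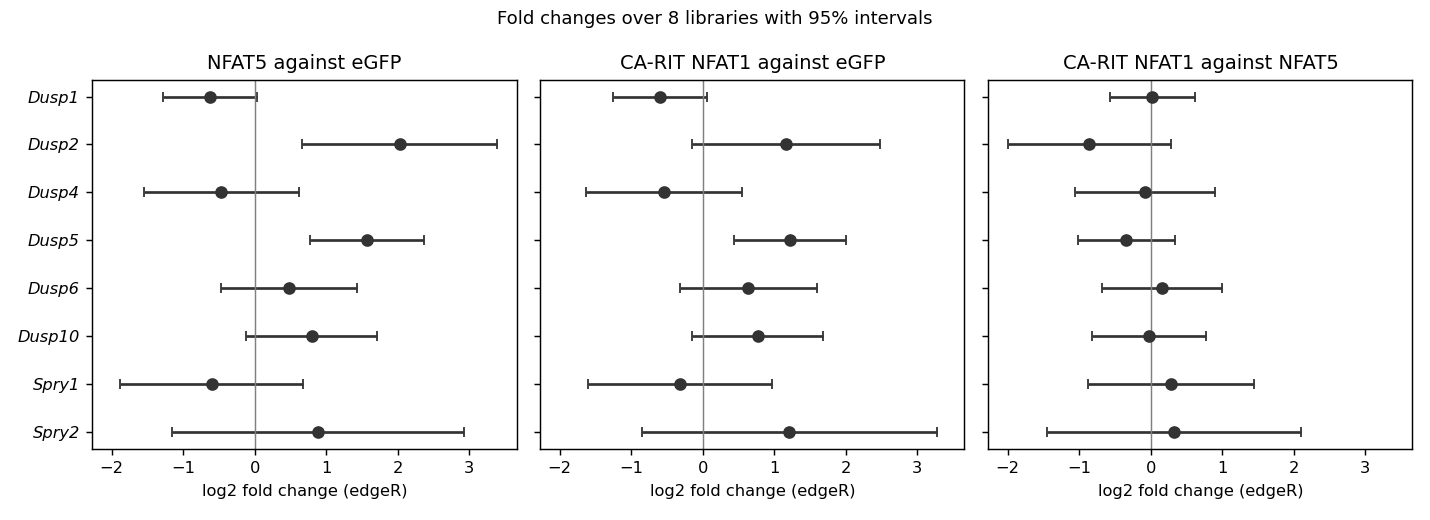
Log2 fold changes of the 8 genes in the 3 comparisons from edgeR over 8 libraries (points), with 95% intervals (bars). The intervals of Dusp5 lie above 0 in both comparisons with eGFP and that of Dusp2 with NFAT5 only, and every interval of CA-RIT NFAT1 against NFAT5 spans 0; none of the p-values behind them passed adjustment.

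Between CA-RIT NFAT1 and NFAT5 the 8 log2 fold changes ran from -0.86 for Dusp2 to 0.33 for Spry2, and every adjusted p was 1.00 in edgeR. The intervals do not show that the factors act alike. For Dusp5 the interval ran from -1.01 to 0.34, for Dusp1 from -0.57 to 0.62 and for Dusp6 from -0.67 to 1.00, so a 2-fold difference lies at the edge of the last interval and within that of Dusp5. In the test for any difference among the 3 groups, Dusp5 had the lowest unadjusted p of the 8 at 0.00571 and Dusp2 followed at 0.0238, both with an adjusted p of 0.980 (edgeR).

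Across libraries, 7 of the 8 genes could be placed in 2 sets that moved in different ways, a grouping made after their values were seen and given as a description. Spry2 belonged to neither: it was low in both controls, and over the 8 libraries its r was 0.73 with Dusp5 and 0.71 with Dusp6, a gene of each set. Dusp2, Dusp5 and Dusp10 were low in both controls and varied together over the 8 libraries, with Pearson r of 0.74 to 0.90 between them on log2(CPM + 1). Over the 6 libraries with a factor alone the range was 0.17 to 0.79, the highest being that of Dusp2 with Dusp5. The points share their library preparation and depth.

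Dusp1, Dusp4, Dusp6 and Spry1 formed the other set. Within the NFAT5 group, library 1 was the highest for each of these 4 genes, and within the CA-RIT NFAT1 group the order was library 2, then 4, then 9 for each of them. Over the 6 libraries with a factor their pairwise r ran from 0.79 to 0.97, with Dusp6 and Spry1 at 0.97 and Dusp1 and Dusp6 at 0.96. Over all 8 libraries the range was 0.10 to 0.84, and in eGFP 3 Dusp4 and Spry1 were high while Dusp6 was low. Without eGFP 3 it was 0.74 to 0.96. The number of genes with a read was also highest in NFAT5 1 (16476, against 15475 and 15276 in NFAT5 5 and 8) and ran 17255, 16291 and 15922 in CA-RIT NFAT1 2, 4 and 9. The likeness is partial: NFAT5 8 lay above NFAT5 5 for Dusp1, Dusp4 and Dusp6, and eGFP 3, with fewer genes than eGFP 6 (13186 against 16051), was the higher control for Dusp1, Dusp4 and Spry1. The part of library complexity in this pattern was not tested. Between the sets, r over the 6 libraries ran from -0.53 (Dusp2 with Spry1) to 0.29, and over the 8 libraries from -0.61 to 0.46. Over the 8, Dusp6 had a higher r with Dusp5 (0.46) than with Dusp1 (0.13), Dusp4 (0.10) or Spry1 (0.24) of its own set. The sets were thus less distinct over all 8 libraries.

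**Figure D4:**
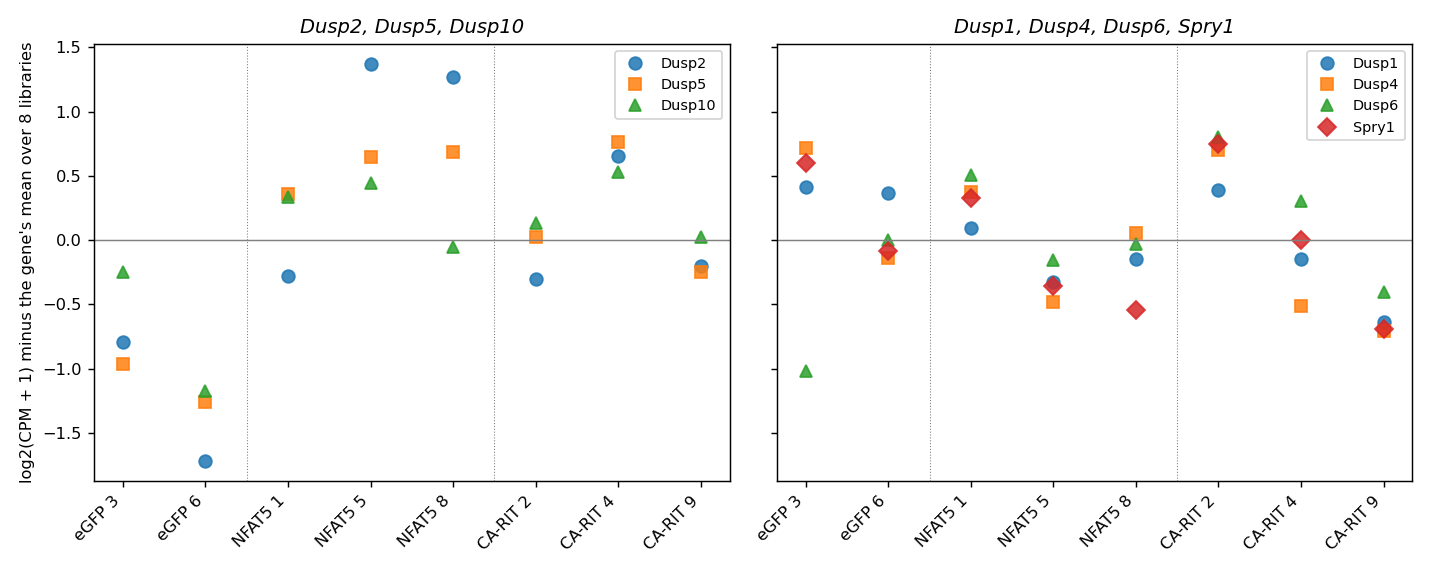
Deviation of log2(CPM + 1) from each gene's mean over the 8 libraries (vertical axis) by library (horizontal axis, dotted lines between vectors), for Dusp2, Dusp5 and Dusp10 on the left and Dusp1, Dusp4, Dusp6 and Spry1 on the right; each marker is 1 gene in 1 library. On the left both eGFP libraries lie under 0, and on the right NFAT5 1 and CA-RIT NFAT1 2 are the highest libraries of their groups.

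The genes most like each member were sought, over the 8 libraries, among 9297 other genes whose mean reached 5 CPM. Dusp2 was closest to Wsb1 (r = 0.96), to Tnf, the gene of the cytokine TNF (r = 0.95), and to Ube2g1 (r = 0.93). Dusp5 was closest, after its antisense gene, to the clock gene Per1 (r = 0.97) and to Errfi1, an inhibitor of the EGF receptor (r = 0.97). Dusp6 lay closest to Sbf1 and Svil (r = 0.99 each) and to Rgs16, a regulator of G protein signalling (r = 0.98). For Dusp1 these were Abhd6 (r = 0.98), Npc2 (r = 0.97) and Isg20 (r = 0.96), for Dusp4 Angptl2 (r = 0.95), Ptprk and Eef2kmt (r = 0.93 each), for Dusp10 Cdk10, Rnf141 and Gm49342 (r = 0.90 to 0.93), and for Spry1 Spg20 (r = 0.98), Klc3 and Cdipt (r = 0.96 each). Without eGFP 3 the 3 closest genes of Dusp2 were Ptrhd1 (r = 0.98), Ass1 and Egr2 (r = 0.97 each), and those of Dusp5 were AC137853.2 (r = 0.99), Nr4a1 and Zfp472 (r = 0.98 each), so of their closest genes only AC137853.2 was named both times. For the others, Abhd6 and Npc2 (Dusp1), Angptl2 (Dusp4), Svil (Dusp6) and Klc3 (Spry1) were named again, and none of those of Dusp10. Over so few libraries these values are descriptions only.

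The genes around these brakes were taken by lists, and no gene of any list passed adjustment in edgeR. Of 21 genes of the route from RAS to ERK, 14 lay above 0 with NFAT5 and 14 with CA-RIT NFAT1 (medians 0.22 and 0.30, beside 0.08 and 0.10 for all genes, of which 53.9% and 54.6% lay above 0, the shares against which the counts of all the lists are to be read). With NFAT5, Braf (1.28 ± 0.78) and Rasa1 (0.71 ± 0.49) headed the upper side and Rasa2 (-1.04 ± 0.35) and Nras (-0.51 ± 0.23) the lower, of which Rasa2, a GTPase-activating protein that switches RAS off, had an unadjusted p below 0.05. With CA-RIT NFAT1, Rps6ka3 (0.88 ± 0.51) lay above and Rasa2 (-0.67 ± 0.35) and Nras (-0.44 ± 0.23) below. Between the factors Rasa2 (0.37 ± 0.32) lay higher with CA-RIT NFAT1, and Map2k2 (-0.18 ± 0.18) and Braf (-0.55 ± 0.67) lower.

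Of 15 genes of the JNK and p38 routes 13 were tested, and 11 lay above 0 with NFAT5 and 10 with CA-RIT NFAT1 (medians 0.26 and 0.36). Mapkapk2, a kinase activated by p38, stood at 0.54 ± 0.37 and 0.74 ± 0.37, Map3k5 at 1.34 ± 1.04 with NFAT5 and Map3k4 at 0.86 ± 0.68 with CA-RIT NFAT1. Mapkapk3 (-0.31 ± 0.26 and -0.28 ± 0.26) and Map2k3 (-0.03 ± 0.27 and -0.15 ± 0.27) were on the lower side of both. Between the factors the named genes were Map3k1 (0.30 ± 0.37), Mapkapk2 (0.20 ± 0.32), Mapk11 (-0.62 ± 0.78) and Map2k3 (-0.12 ± 0.24), and none of this list had an unadjusted p below 0.05 in any comparison.

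Among 20 immediate-early and ERK-responsive genes, 10 lay above 0 with NFAT5 and 11 with CA-RIT NFAT1, near an even split. Their medians were -0.02 and 0.03. With NFAT5, 3 of the 20 lay higher and 1 lower with an unadjusted p below 0.05 (edgeR), beside 7.26% of all genes. With CA-RIT NFAT1 there was 1 on each side, beside 6.44% of all genes. Egr1, an early transcription factor downstream of ERK, stood at 894 ± 193 CPM in the NFAT5 libraries, beside 316 ± 78.7 CPM in the controls (SD, n = 3 and 2; log2 fold change 1.41 ± 0.50, adjusted p = 0.654, edgeR), and Nr4a1 at 397 ± 87.0 and 165 ± 69.2 CPM (1.14 ± 0.46). Ier3 (-1.42 ± 0.49) and Fos (-0.87 ± 0.45) headed the lower side. With CA-RIT NFAT1 the named genes were Phlda1 (0.80 ± 0.37), Egr2 (2.68 ± 1.55, with no read in eGFP 3), Ier3 (-1.28 ± 0.49) and Fos (-0.93 ± 0.45), and between the factors Myc (0.39 ± 0.30), Jun (0.76 ± 0.76), Ier5 (-0.48 ± 0.24) and Ier2 (-0.70 ± 0.35). Fosl1, named after its values were seen, had no read in either control, which allows up to 0.0821 and 0.121 CPM, and was found in all 6 others, at up to 3.04 CPM.

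The other members of the phosphatase family were a mixed group. Dusp7, a cytoplasmic ERK phosphatase, stood at 0.13 ± 0.37 and 0.02 ± 0.37 against eGFP and at -0.11 ± 0.33 between the factors. Of 4 other typical MAP kinase phosphatases 3 were tested, and only Dusp7 reached a mean of 5 CPM. Dusp9, named after its values were seen, had an unadjusted p below 0.05 between the factors (log2 fold change -1.66, edgeR). Its mean lay below 5 CPM. Of 12 atypical dual-specificity phosphatases, which lack the kinase-binding domain, 10 were tested. With NFAT5, 8 of them lay below 0, among them Dusp19 (-0.81 ± 0.38) and Dusp14 (-0.74 ± 0.37), with Dusp11 (0.48 ± 0.25) and Dusp28 (2.54 ± 1.55) above. With CA-RIT NFAT1, 6 lay below 0, led by Dusp19 (-0.96 ± 0.37, unadjusted p below 0.05) and Dusp12 (-1.08 ± 0.52), with Dusp28 (2.60 ± 1.56) and Dusp11 (0.13 ± 0.25) above. Both values of Dusp28 rest on low levels. It stood at 0 and 2.10 CPM in the 2 controls, 2.67 to 8.48 CPM with NFAT5 and 5.86 to 7.52 CPM with CA-RIT NFAT1. Between the factors the named genes were Dusp14 (0.45 ± 0.33), Dusp22 (0.26 ± 0.42), Dusp11 (-0.35 ± 0.22) and Dusp19 (-0.15 ± 0.34). Spred1, a Sprouty-related inhibitor of this route, stood at -0.78 ± 0.57, -0.51 ± 0.57 and 0.27 ± 0.52 in the 3 comparisons.

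Of the 13 digestion and heat shock genes, Klf6 (-0.61 ± 0.27) had an unadjusted p below 0.05 with NFAT5, where Hspa8 (-0.37 ± 0.20) was also on the lower side and Socs3 (0.63 ± 0.35) and Zfp36 (0.39 ± 0.30) on the upper. With CA-RIT NFAT1 the named genes were Hsph1 (0.34 ± 0.25), Socs3 (0.27 ± 0.35), Klf6 (-0.59 ± 0.27) and Btg2 (-0.69 ± 0.34). Between the factors they were Hspa8 (0.28 ± 0.18), Atf3 (0.71 ± 0.65), Zfp36 (-0.37 ± 0.27) and Socs3 (-0.36 ± 0.31). Like Dusp1, Klf6 had log2 fold changes below 0 with both factors, whereas those of Socs3 were above 0 with both. The CA-RIT NFAT1 libraries, at 144 to 246 CPM of Klf6, overlapped with the controls at 219 to 303 CPM.

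**Figure D5:**
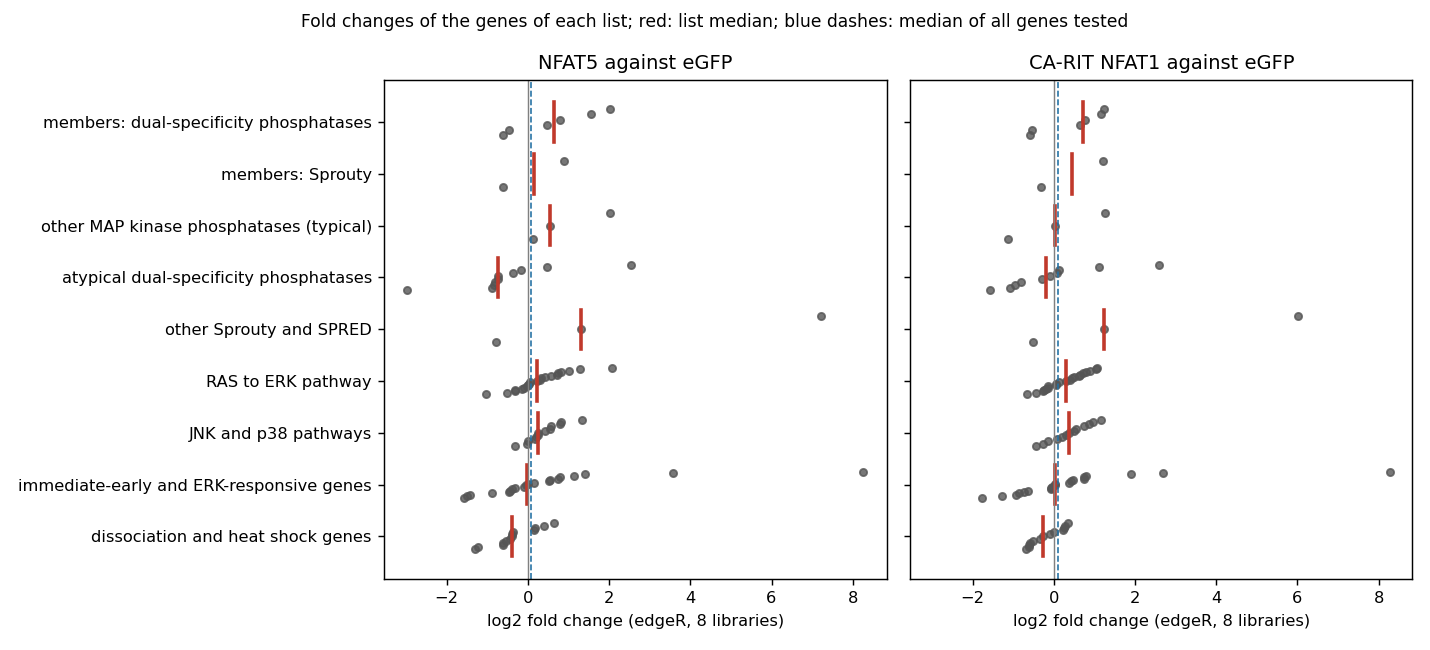
Log2 fold changes (edgeR, 8 libraries) of the tested genes of each list for NFAT5 and CA-RIT NFAT1 against eGFP; each point is 1 gene, red bars are list medians and blue dashes mark the median of all genes tested (0.08 and 0.10). The phosphatases followed here have medians of 0.64 and 0.71, the atypical phosphatases have -0.74 and -0.19, and points beyond 5 are genes without reads in the controls.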

How the data were processed

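RNA of sorted tumour-infiltrating CD8 T cells was sequenced in 10 libraries of 3 groups. Per the submitters' processing notes, the authors used Salmon 0.14.1 and the builds mm10 and GRCm38.p6; the sources used here give no further options and no strandedness. The deposited tables hold, per transcript, the authors' estimated counts, TPM, length and effective length. GENCODE M21 holds 139966 of the 140919 transcripts, which were summed to 54337 genes; the 953 others held at most 0.292% of a library's reads. Estimated counts were rounded and tested with edgeR 4.0.16 (R 4.3.3; quasi-likelihood test, TMM, filterByExpr, 8 libraries, 14473 genes), with Benjamini-Hochberg adjustment over all genes and a threshold of 0.05. DESeq2 1.42.0, limma voom 3.58.1, other scalings and filters, length offsets, all 10 libraries and leaving out each library were alternatives. The fits were tested on simulated data. CPM are rounded counts scaled to the library's matched reads, without a TMM factor, and correlations use log2(CPM + 1). In libraries of 18761187 reads or more, 3 counts correspond to at most 0.160 CPM.

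The 8 genes, the lists, the markers and the omission of eGFP 7 and CA-RIT NFAT1 10 were chosen with earlier results of these data known. Of each list, the text names the 2 genes with the smallest p on each side among those with a mean of at least 5 CPM; for each of the 8 genes above 5 CPM it names the 3 closest genes. A further gene that this rule names is not reported here. Marker lists not given with the results were summed over the 8 libraries. The 6 neutrophil genes came to 0 to 2.66 CPM and the 4 red cell genes to 0 to 0.918 CPM. The 4 CD4 and regulatory T cell genes came to 1.73 to 8.67 CPM. The 6 NK and B cell genes came to 110 to 252 CPM, with only 1 or 2 of them above 1 CPM in each library. The 7 fibroblast and endothelial genes came to 4.71 to 41.8 CPM, also with 1 or 2 above 1 CPM in each library.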

Additional observations from a re-analysis of the deposited data

Results flagged for a closer look

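Dusp10 in CA-RIT NFAT1 10 stood at 5.05 CPM, far below the 33.5 to 48.1 CPM of the other 3 libraries of its group. Taken on log2(CPM + 1), the gap to the nearest made up 0.833 of the range, only just above Dixon's 95% limit for 4 samples. The flag rests on that scale and not on the CPM values themselves. Dusp10 alone of the 8 genes passed that limit in this group, and chance alone passes it in about 1 of 20 groups. That library is also the one with almost no Cd8a (0.0308 CPM).

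Spry2 in the same library, which the comparisons do not use, stood at 3.05 CPM (99 reads), above the higher of the control libraries compared at 0.971 CPM.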

How the results depend on the processing

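With edgeR no gene was called in any comparison, and the numbers with an unadjusted p below 0.05 were 1051, 932, 163 and 588 for the NFAT5 group and the CA-RIT NFAT1 group against eGFP, for these groups against each other and for any difference. DESeq2 called 131, 100, 4 and 74 genes there, limma voom none. Leaving out 1 library gave 0 to 3294, 0 to 3410, 0 and 0 to 2374 called genes, the high ends coming from leaving out eGFP 6; an eGFP group of 1 library is assumed to vary like the others. Over the 8 libraries DESeq2 called Dusp5 with NFAT5 against eGFP (log2 fold change 1.55). Leaving out 1 library at a time kept its edgeR value there between 1.37 and 1.81. Of 192 fold changes of the 8 genes with a library left out, 15 turned sign: ranges crossing 0 were -0.87 to 0.13 for Dusp4 with NFAT5, -1.08 to 0.047 for Dusp4 and -0.75 to 0.18 for Spry1 with CA-RIT NFAT1. Between the factors they were -0.24 to 0.24 for Dusp1, -0.63 to 0.16 for Dusp4, -0.13 to 0.42 for Dusp6, -0.22 to 0.092 for Dusp10, -0.16 to 0.61 for Spry1 and -0.13 to 0.58 for Spry2. Of 213 under other alternatives, 4 turned sign, all between the factors: Dusp6 (-0.12) and Spry1 (-0.10) with all 10 libraries, Dusp10 with limma voom (0.052) and with length offsets (0.0066). The cause was not tested. A pseudocount of 0.1 moved the Spry2 differences to 0.89 and 1.16, and the stricter filter removed Spry2. No paired analysis was possible because the groups share no replicate numbers. Depth limits Spry2 most, at 20 to 88 reads a library.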

Other observations

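CA-RIT NFAT1 10 had high summed levels of mast cell and P511, macrophage and monocyte, and dendritic cell markers. All 12 macrophage and monocyte genes were above 1 CPM there. That held for only 5 of the 11 mast cell and P511 genes and 2 of the 8 dendritic cell genes. Which cells its levels come from was not tested. Dusp1 stood at 245 CPM there, within the 125 to 260 CPM of the 8 libraries. In contrast, Dusp4 stood at 2.95 CPM against 49.7 to 135 CPM and Spry1 at 1.14 CPM against 7.55 to 22.2 CPM. Dusp2 at 114 CPM and Dusp5 at 49.4 CPM were also below every one of the 8, and Dusp6 at 26.7 CPM was just below the lowest. The ETS factors Etv5 and Etv4, known targets of ERK signalling, stood at 82.4 and 25.9 CPM there, against at most 7.26 and 3.16 CPM in the 8 libraries.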
